A study of Homo sapiens with 9 samples.

Results

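Glutathione is the main thiol antioxidant of the cell, and 10 genes that build, recycle and use it are described here in the breast cancer cell line MDA-MB-453. The genes were *SLC7A11*, *GCLC*, *GCLM*, *GSS*, *GSR*, *MGST1*, *GSTP1*, *GPX4*, *GPX2* and *GPX1*. They were taken by symbol from a table of 59452 gene rows and were chosen from earlier results on the same libraries, so their values in both comparisons are a description and not a test. Bulk RNA sequencing covered 9 libraries in 3 conditions of 3 libraries each, all collected at 48 hours. Attached cells received vehicle (DMSO). Suspended cells, kept from attaching by plates coated with poly-HEMA, received either vehicle or AT-0174 at 10 µmol/L, a compound that blocks the tryptophan-degrading enzymes TDO2 and IDO1. Forced suspension is a culture model of loss of attachment in a single cell line. The study's methods call the libraries of a condition biological replicates, and p-values measure the spread between them.

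Cells make glutathione from glutamate, cysteine and glycine. Cystine enters through system xc−, whose transport subunit is encoded by *SLC7A11* and whose partner chain is encoded by *SLC3A2*, and it is reduced to cysteine inside the cell. Glutamate–cysteine ligase, built of the catalytic subunit GCLC and the modifier subunit GCLM, catalyzes the rate-limiting step, and glutathione synthetase (GSS) adds glycine. Glutathione reductase (GSR) restores oxidized glutathione, the peroxidases GPX1, GPX2 and GPX4 use it to remove peroxides, with GPX4 acting on peroxidized membrane lipids, and the transferases GSTP1 and MGST1 use it to detoxify reactive compounds. Several of these genes are textbook targets of NRF2, a transcription factor that binds the antioxidant response element, and *SLC7A11* is also a known target of ATF4.

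Because the antioxidant response element links many glutathione genes, the promoters were searched for its core, TGACNNNGC, on both strands. RefSeq promoters of GRCh38.p14, 250 bases before to 50 bases after each start, covered 7 of the 10 genes with 11 entries, and *SLC7A11*, *GSS* and *GSR* were not matched. The core was found in 4 of the 11 entries, in *GCLM*, *GSTP1*, *GPX2* and 1 entry of *MGST1*, and in 4687 of all 35116 promoters (13.3%). The windows below are shown because they hold the core in a synthesis gene that differed between conditions and in both genes that were close to silent. Letters run 5′ to 3′ along the gene, with the match in capitals, and *GCLM* and *GPX2* carry it on the opposite strand.
GCLM (chr1:93909451-93909510, minus strand): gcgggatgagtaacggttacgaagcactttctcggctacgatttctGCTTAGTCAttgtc
GSTP1 (chr11:67583712-67583771, plus strand): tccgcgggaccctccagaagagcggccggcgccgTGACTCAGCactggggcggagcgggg
GPX2 (chr14:64942836-64942895, minus strand): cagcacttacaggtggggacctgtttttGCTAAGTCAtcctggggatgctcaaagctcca
Counted from the RefSeq start, the match lay at −34 to −26 in *GCLM*, at −66 to −58 in *GSTP1* and at −122 to −114 in *GPX2*. In *MGST1* it lay at 31 to 39 past that start. Gene positions given further below follow GENCODE, whose starts can differ. The GENCODE start of *GSTP1*, chr11:67583742, lies inside its printed window, just before the match. That of *GCLM*, chr1:93909456, also lies inside its window, on the last base of the match. The letters TGATGNAA, the core bound by CEBP–ATF pairs such as those with ATF4, were absent from the 11 entries and present in 3.62% of all promoters. At that share few matches would be expected in 11 entries, and *SLC7A11*, named above as an ATF4 target, had no entry. Nothing is therefore read from the absence. The matches to the antioxidant core are letters in a window and do not show binding.

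The libraries held 36649997 to 48019126 estimated counts, and 15528 genes had enough counts to be tested. Pairs of replicate libraries differed by more than sampling noise, with a chi-square of 3.24 to 19.5 per degree of freedom, and no pair was counted as 1 sample. The comparison was with counting noise alone, so the excess cannot show that the libraries came from separate cultures. The luminal or epithelial markers *FOXA1* (321–426 TPM), *GATA3* (903–1077 TPM), *KRT8* (779–877 TPM), *KRT18* (695–869 TPM) and *EPCAM* (293–363 TPM) were high in every library, and *PIP* was lower at 7.87–17.4 TPM. Of the basal or mesenchymal markers, *KRT5*, *KRT14* and *VIM* stayed at 0.246 TPM or less and *CDH3* stood at 1.92–7.09 TPM. The fibroblast markers *COL3A1* and *PDGFRB* stayed at 0.276 TPM or less, whereas *COL1A1* stood at 51.5–66.0 TPM. Of the leukocyte markers, *PTPRC* and *CD3E* stayed at 0.076 TPM or less and *CD68* stood at 1.27–4.63 TPM. The labels call the line triple-negative, whereas *ERBB2*, which encodes HER2, stood at 398–436 TPM. In bulk RNA, fewer cells that express a gene and less RNA per cell cannot be told apart.

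Levels of different genes were compared as TPM, which corrects for transcript length. In attached cells, *GPX4* was the most abundant of the 10 genes, at 451 ± 11.2 TPM (SD, n = 3), which placed it at percentile 97.8 among the 12995 genes over 1 TPM. *MGST1* followed at 286.8–310.7 TPM (mean 299) and *GPX1* at 270 ± 4.10 TPM, and these 2 genes did not overlap between the attached libraries. In suspended cells with vehicle they did overlap, at 332–372 TPM for *MGST1* and 322–351 TPM for *GPX1*. *GSR* (137 ± 9.64 TPM), *GSS* (89.2 ± 2.82 TPM) and *GCLC* (54.0 ± 3.95 TPM) came next, in that order and without overlap between libraries. *GCLM* at 19.5 ± 0.762 TPM sat near the middle of expressed genes, at percentile 50.9. The cystine transporter subunit was far lower, with *SLC7A11* at 3.99 ± 0.736 TPM and percentile 19.5. *GPX4*, *MGST1* and *GPX1*, which use glutathione, were therefore more abundant as transcripts than the genes that import its precursor or join its amino acids, whereas *GPX2* and *GSTP1* were close to undetected.

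**Figure D1:**
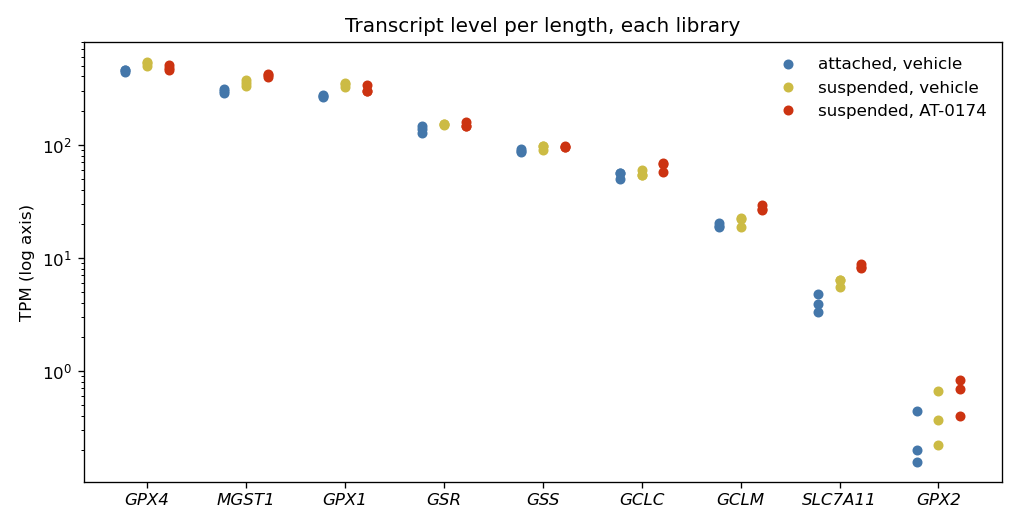
Transcript level in TPM (log axis) of each glutathione gene, 1 point per library, colored by condition. *GPX4*, *MGST1* and *GPX1* lie above 260 TPM in each library, *SLC7A11* between 3.29 and 8.79 TPM, and *GPX2* below 1 TPM. *GSTP1*, at 0 TPM in the attached libraries, is not drawn.

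The transcript of the cystine transporter subunit showed the widest range across conditions among the 8 genes that were clearly expressed. *SLC7A11* (ENSG00000151012, GRCh38 chr4:138164097-138242349, minus strand) was measured at 24.3, 23.8 and 23.2 CPM, the estimated counts per library size scaled by TMM, in the 3 attached libraries. Suspended libraries with vehicle held 35.0, 34.9 and 35.3 CPM, and those with AT-0174 held 56.9, 54.7 and 53.9 CPM. The 3 conditions did not overlap, and the level stepped up from attached to suspended cells and again with AT-0174. The difference of suspended from attached cells was 0.56 on the log2 scale (SE 0.0406, 1.48-fold), and that of AT-0174 from vehicle was 0.65 (SE 0.038, 1.57-fold). On average, 23.8 ± 0.543, 35.1 ± 0.232 and 55.1 ± 1.56 CPM (SD, n = 3) were found in the 3 conditions.

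Most *SLC7A11* signal came from 1 transcript. ENST00000280612 made up 87.0% ± 14.8 of the gene's TPM in attached cells, 90.0% ± 8.72 in suspended cells with vehicle and 100% in each library with AT-0174 (SD, n = 3). A shorter transcript, ENST00000509248, held 0–29.1% of the gene in attached libraries and 0–16.0% in suspended libraries with vehicle, and was listed at 0 with AT-0174. Its share thus varied as much between attached libraries as between conditions. *SLC3A2*, whose product pairs with the transporter and with other amino acid carriers, was far more abundant. The TPM ratio of *SLC3A2* to *SLC7A11* was 37.1, 31.4 and 47.0 in the attached libraries. After suspension it was 26.3, 30.9 and 26.6 with vehicle and 20.5, 22.3 and 23.1 with AT-0174. The ratio was therefore lower in each condition in turn, without overlap.

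Both subunits of glutamate–cysteine ligase were higher with AT-0174 than with vehicle, and neither passed the threshold between suspended and attached cells. *GCLM* (ENSG00000023909, chr1:93885199-93909456, minus strand), whose promoter window is printed above, had 50.1, 46.9 and 50.4 CPM in attached cells. Suspension with vehicle left it at 46.3, 45.7 and 47.2 CPM. With AT-0174 it had 65.3, 61.7 and 66.9 CPM, above each vehicle library. Its difference was −0.08 (SE 0.0436) for suspended against attached cells, whose libraries overlapped, and 0.48 (SE 0.0426, 1.39-fold) for AT-0174 against vehicle.

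*GCLC* (ENSG00000001084, chr6:53497341-53616970, minus strand), the catalytic subunit, went the same way by a smaller step. Attached libraries held 66.9, 67.4 and 61.8 CPM, suspended libraries with vehicle held 64.3, 59.9 and 60.6 CPM, and those with AT-0174 held 75.9, 75.0 and 76.4 CPM. The AT-0174 libraries lay above the other 6, and the other 2 conditions overlapped. The log2 difference was −0.09 (SE 0.0423) with suspension and 0.30 (SE 0.0417, 1.23-fold) with AT-0174. On the TPM scale 1 of the AT-0174 libraries, at 57.7 TPM, fell within the range of suspended cells with vehicle, 53.5–59.3 TPM. The TPM ratio of *GCLC* to *GCLM* was 2.62–2.94 in attached cells, 2.36–3.17 in suspended cells with vehicle and 2.17–2.57 with AT-0174, so the 2 suspended conditions overlapped.

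The transcripts for the last step of synthesis and for the recycling step moved little. *GSS* (ENSG00000100983, chr20:34928432-34956027, minus strand) averaged 105.9 ± 1.84 CPM in attached cells, 106.1 ± 2.16 CPM in suspended cells with vehicle and 108.5 ± 1.94 CPM with AT-0174 (SD, n = 3). The libraries of the 3 conditions overlapped, and the log2 differences were 0.00 (SE 0.0315) and 0.03 (SE 0.0312). *GSR* (ENSG00000104687, chromosome 8) averaged 209.2 ± 10.0, 216.7 ± 2.35 and 223.6 ± 1.53 CPM in the same order. Its AT-0174 libraries, at 221.8 to 224.6 CPM, did not overlap with suspended cells given vehicle, at 214.1 to 218.5 CPM, but the log2 difference of 0.05 (SE 0.0347) did not pass the threshold.

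The abundant transferase differed in both comparisons and the other was close to undetected. *MGST1* (ENSG00000008394, chr12:16347142-16609259, plus strand), a membrane-bound transferase with peroxidase activity, held 117.3, 112.3 and 107.8 CPM in attached cells. It held 121.0, 120.3 and 123.1 CPM in suspended cells with vehicle and 149.5, 151.9 and 143.5 CPM with AT-0174, so the 3 conditions did not overlap. The log2 difference was 0.11 (SE 0.0367, 1.08-fold) with suspension and 0.29 (SE 0.0362, 1.22-fold) with AT-0174. The first of these was close to the threshold, and it was lost when any of 7 of the 9 libraries was left out. Those were attached libraries 2 and 3, the 3 suspended libraries with vehicle, and AT-0174 libraries 1 and 2, with a log2 difference of 0.08 to 0.14 over the alternatives. The suspension call was also lost when the fit held only the 6 libraries of the comparison (edgeR adjusted p = 0.0722). It was lost too with the replicate number as a block (0.0522) and when length-scaled TPM replaced the estimated counts (0.117).

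*GSTP1* (ENSG00000084207, chr11:67583742-67586656, plus strand), a cytosolic transferase that is often silenced by promoter methylation in luminal breast cancer cells, had 0 counts in the 3 attached libraries. It had 0, 1 and 0 counts in suspended cells with vehicle and 0, 2 and 1 with AT-0174. A count of 0 allows up to 3 counts, which is 0.0625 to 0.0819 CPM in these libraries, for counting error alone. No fold change was given and the gene was not tested, since each library lay at or below this limit.

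The peroxidases did not share a pattern with the ligase. *GPX1* (ENSG00000233276, chr3:49357174-49358605, minus strand), the cytosolic selenoenzyme that removes hydrogen peroxide, was measured at 144.0, 144.1 and 144.3 CPM in attached cells. Suspended cells held 162.8, 168.0 and 172.5 CPM with vehicle and 168.0, 156.8 and 151.0 CPM with AT-0174. Each suspended library exceeded the attached ones, and the 2 suspended conditions overlapped. The log2 difference was 0.22 (SE 0.0394, 1.16-fold) with suspension and −0.08 (SE 0.0391) with AT-0174.

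*GPX4* (ENSG00000167468, chr19:1103982-1106791, plus strand) held 206.9, 208.1 and 205.2 CPM in the attached libraries. Suspension gave 214.2, 220.1 and 222.9 CPM with vehicle and 217.6, 204.1 and 206.9 CPM with AT-0174. Suspended cells with vehicle lay above attached cells without overlap, yet the log2 difference of 0.08 (SE 0.0321) did not pass the threshold, nor did −0.06 (SE 0.032) with AT-0174. The TPM ratio of *GPX1* to *GPX4* was 0.592–0.605 in attached cells, 0.651–0.658 in suspended cells with vehicle and 0.625–0.662 with AT-0174, so the attached libraries lay apart from the others. *GPX2* (ENSG00000176153, chr14:64939152-64942746, minus strand), the gastrointestinal form, had 4, 4 and 7 counts in the attached libraries. The suspended ones had 8, 5 and 15 counts with vehicle and 12, 9 and 11 with AT-0174. At this depth no difference in *GPX2* was detectable, with log2 differences of 0.73 (SE 0.49) and 0.11 (SE 0.435).

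**Figure D2:**
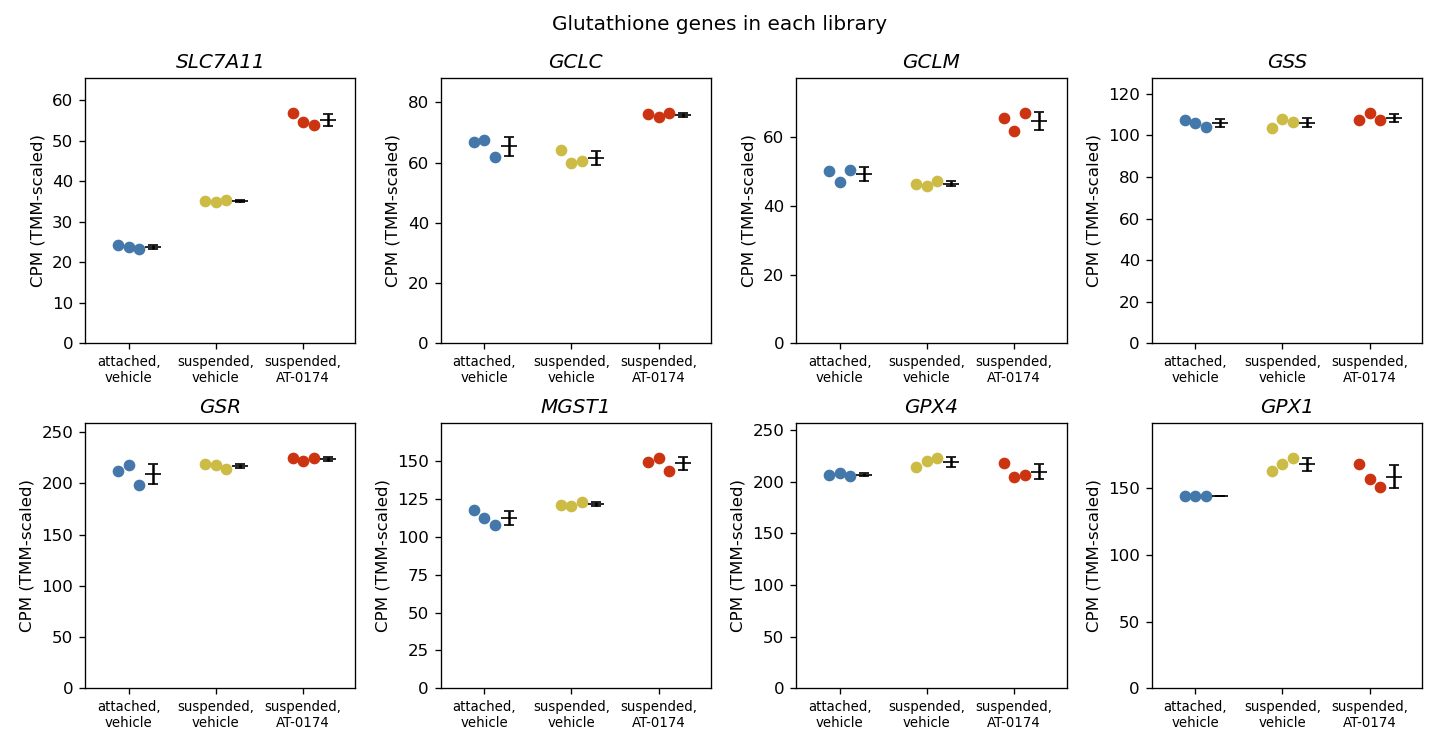
CPM (TMM-scaled, axes from 0) of the 8 clearly expressed genes in each library, with the mean and SD of each condition as a bar beside its 3 points. *SLC7A11* and *MGST1* step up across the 3 conditions, *GCLC* and *GCLM* stand apart with AT-0174, and *GPX1* stands apart in attached cells. The suspension call of *MGST1* was kept in 2 of the 9 fits with 1 library left out.

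Of the 10 genes, 9 passed the filter on low counts, *GPX2* through the 3 libraries in which it reached the minimum. With edgeR and a Benjamini–Hochberg adjusted p under 0.05 over all 15528 genes, *SLC7A11*, *MGST1* and *GPX1* were higher in suspended than in attached cells and no member was lower. Suspension moved 21.2% of all tested genes past this threshold, 10.4% higher and 10.8% lower. With AT-0174, *SLC7A11*, *GCLC*, *GCLM* and *MGST1* were higher and no member was lower, where 0.779% of all tested genes passed, 0.522% higher and 0.258% lower. The genes were chosen on these comparisons, so nothing is read from their counts against these shares. The median log2 difference over the 9 tested genes was 0.08 with suspension and 0.11 with AT-0174, the latter being the value of *GPX2* itself. Over the 8 without *GPX2* it was 0.07 and 0.17, and over all tested genes it was 0.00 in both, from which nothing is read either. Both comparisons use the same suspended libraries with vehicle, so their values are given side by side and are not independent. The AT-0174 calls held whichever of the 9 libraries was removed. When estimated counts were replaced by length-scaled TPM, *GCLM* alone passed, with log2 differences of 0.50 for *SLC7A11*, 0.26 for *GCLC* and 0.27 for *MGST1*. Over all tested genes, 35 of 15669 passed there with AT-0174, beside 121 of 15528 in the main fit.

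**Figure D3:**
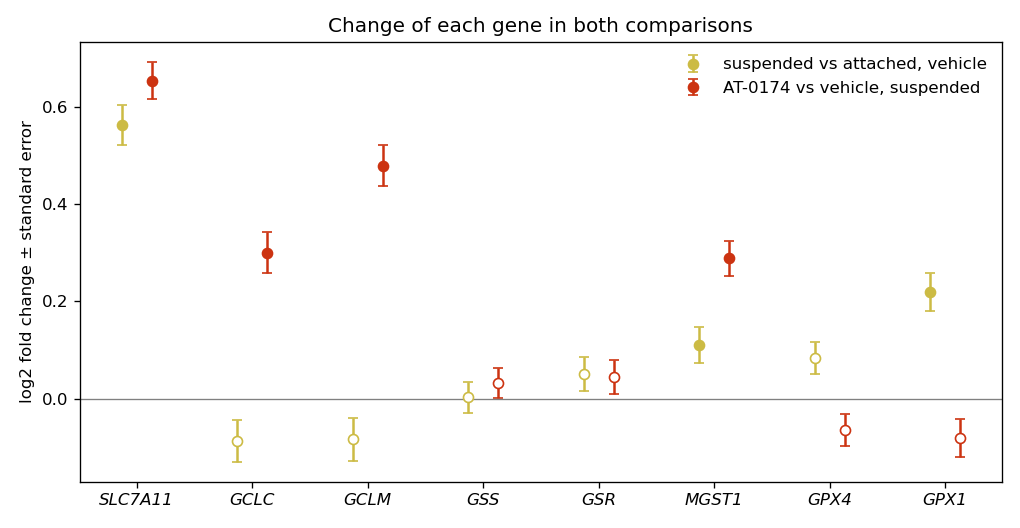
Log2 fold change with its SE for suspension and for AT-0174, with filled points past the adjusted p of 0.05. *SLC7A11* lies at 0.56 and 0.65, *GCLM* at −0.08 and 0.48, and *GPX1* at 0.22 and −0.08.

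Across the 9 libraries, log2 CPM of *SLC7A11* and *MGST1* had a Pearson r of 0.964, *GCLC* and *GCLM* 0.911, and *GPX1* and *GPX4* 0.869, as a description over libraries that share the 3 conditions and the TMM scaling. *GCLC* and *GPX4* had an r of −0.44. Outside the group, the genes most like *SLC7A11* by this measure were *PPP2R2C* (0.991), a phosphatase subunit, the stress cytokine gene *GDF15* (0.990), *EMP2* (0.987), *SNX3* (0.986) and the epithelial transcription factor gene *GRHL3* (0.982). *PPP2R2C* averaged 43.6 CPM in attached cells, 50.5 CPM in suspended cells with vehicle and 59.0 CPM with AT-0174. *GDF15* averaged 15.1, 25.4 and 39.6 CPM in the same order. The genes most like *GCLM* were *FTH1* (0.981), which encodes the heavy chain of the iron store ferritin, the pentose phosphate enzyme gene *TKT* (0.976), *OSGIN1* (0.974), *ASPH* (0.974) and *DENND11* (0.973). *FTH1* averaged 4213, 3873 and 6256 CPM in the same order, and *OSGIN1*, an oxidative stress response gene, averaged 19.2, 17.8 and 27.8 CPM. *ASPH* averaged 815.7, 812.6 and 934 CPM. These genes share with *GCLM* a level with AT-0174 above that in both vehicle conditions. They were picked for this likeness, so the shared pattern is no separate result.

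Around these 10 genes, 122 further genes of glutathione metabolism were followed in 11 lists, and 97 of them had enough counts. In suspended against attached cells 19 were higher and 9 lower, with a median log2 difference of 0.06, and 69 did not pass, beside 10.4% higher and 10.8% lower among all tested genes. These shares are the background of each list count below, and no list is called apart from them. The count of 28 was 18 without attached library 3, without suspended vehicle library 2 or without suspended vehicle library 3. In the same order, those fits called 1935 of 15798, 1951 of 15796 and 2305 of 15820 tested genes. The main fit called 3297 of 15528. Of the 28 genes, 14 kept their call whichever library was left out, and 12 did so in each of the 17 alternatives, which are marked as steady below. With length-scaled TPM 13 lost their call, namely *SLC3A2*, *MTRR*, *CSAD*, *ETHE1*, *GOT2*, *GSTM2*, *MGST2*, *GLRX3*, *DHODH*, *ACSL4*, *SELENOF*, *GOT1* and *GSTO1*. That setting called 1712 of 15669 tested genes with suspension. *GOT1* (higher by 0.11) kept its call in 2 of the 9 leave-outs and 3 of the 8 other alternatives. *GSTO1* (higher by 0.21) kept its call in 5 and 6 of them. *MGST2* also lost it with DESeq2 (adjusted p = 0.0598), *DHODH* with limma-voom (0.0514), and both when the fit held the 6 libraries of the comparison alone (0.0562 and 0.0588). With AT-0174, edgeR called 0 of the 97, with a median of 0.00, where 9 had an unadjusted p under 0.05. Among all tested genes, 0.779% were called and 9.02% had an unadjusted p under 0.05. DESeq2 called 2, *GLUD1* and *LRP8*, and limma-voom called 0. Over all genes, DESeq2 called 214 and limma-voom 127. *LRP8*, a receptor for selenoprotein P, was nearest in edgeR, at 143.8 ± 1.09 CPM with vehicle and 160.4 ± 5.55 CPM with AT-0174 (SD, n = 3, adjusted p = 0.0534).

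Uptake of cystine and of amino acids for glutathione gave 3 higher and 0 lower of 7 tested genes with suspension. The glutamine carrier gene *SLC38A1* went from 566.4 ± 14.8 to 630.8 ± 16.4 CPM (log2 difference 0.16, edgeR adjusted p = 0.00714). *SLC1A4*, a neutral amino acid carrier, rose by 0.13 (adjusted p = 0.00803, and 0.22 with length-scaled TPM), and both were steady. *SLC3A2* rose by 0.13 (adjusted p = 0.0241), from 150.9 ± 4.74 to 165.1 ± 6.40 CPM, and lost its call without attached 1 or 2 or suspended vehicle 2 or 3 (adjusted p of 0.0508 to 0.0908) and with length-scaled TPM (log2 difference 0.08). The increase of the partner chain was thus 1.09-fold where that of *SLC7A11* was 1.48-fold.

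The methionine cycle and transsulfuration, which make cysteine inside the cell, gave 2 higher and 1 lower of 8. *AHCY*, which splits S-adenosylhomocysteine, rose by 0.17 (edgeR adjusted p = 0.00573), and *MTRR*, which keeps methionine synthase active, rose by 0.18 (adjusted p = 0.00951). The direction of *MTRR* turned with length-scaled TPM, to −0.16 (adjusted p = 0.245). *CBS*, which commits homocysteine to cysteine synthesis, fell from 290.4 ± 24.0 to 234.5 ± 3.76 CPM (log2 difference −0.31, adjusted p = 0.00798). *AHCY* and *CBS* were steady.

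Breakdown of cysteine and sulfide gave 3 higher and 2 lower of 9. *SQOR*, the mitochondrial sulfide oxidase gene, rose from 65.9 ± 2.25 to 80.0 ± 3.25 CPM (0.28, edgeR adjusted p = 0.00105), and *SUOX*, which oxidizes sulfite, fell by 0.24 (adjusted p = 0.0033), both steady. *ETHE1*, a persulfide dioxygenase gene, rose by 0.20 (adjusted p = 0.0225) and lost its call without attached 3 or suspended vehicle 2 or 3. *CSAD*, of the taurine branch, fell by 0.55 (adjusted p = 0.0357) and lost its call without attached 3 or suspended vehicle 1 or 3. Over these leave-outs the adjusted p was 0.0846 to 0.0895 for *ETHE1* and 0.106 to 0.165 for *CSAD*, whose log2 difference was −0.33 without attached 3. *CSAD* also lost its call with DESeq2 (adjusted p = 0.0751).

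The supply of glutamate gave 2 higher and 0 lower of 7. *GOT2*, the mitochondrial aspartate aminotransferase gene, rose by 0.15 (edgeR adjusted p = 0.00894), and *GLUD1*, which interconverts glutamate and α-ketoglutarate, rose by 0.16 (adjusted p = 0.0103, steady). The gamma-glutamyl cycle gave 0 higher and 1 lower of 10, *GGT7*, at −0.27 (adjusted p = 0.0286, and 0.0514 to 0.121 without attached 3 or any suspended vehicle library). Its log2 difference was −0.18 without attached 3 and −0.43 with length-scaled TPM. Of 4 mitochondrial carriers 1 was higher, *SLC25A11*, at 0.21 (adjusted p = 0.0101, steady).

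Other transferases gave 2 higher and 3 lower of 13. *GSTM4* fell to 28.2 ± 0.324 CPM in suspended cells (−0.27, edgeR adjusted p = 0.00151) and was steady. *GSTT2B* fell by 0.38 (adjusted p = 0.0208), *MGST2* rose by 0.22 (adjusted p = 0.0279), and *GSTM2*, at 1.17 ± 0.134 and 0.557 ± 0.109 CPM, fell by 1.07 (adjusted p = 0.0364). The calls of *GSTT2B*, *MGST2* and *GSTM2* were lost in 2, 5 and 6 of the 9 leave-outs, in each case without attached 3 and without suspended vehicle 3, for *MGST2* also without attached 1 or suspended vehicle 1 or 2, and for *GSTM2* without any library of the comparison, with an adjusted p of up to 0.0825, 0.098 and 0.116. The mu and theta transferases have near-identical copies, so the split of reads among them is uncertain. Other peroxidases gave 0 of 2. Glutaredoxins and glyoxalases gave 1 higher of 7, *GLRX3*, an iron–sulfur glutaredoxin, at 0.17 (adjusted p = 0.0204, and 0.0508 to 0.0797 without attached 2 or 3 or suspended vehicle 1 or 3).

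Genes that set lipid peroxidation beside *GPX4* gave 3 higher and 1 lower of 10. *MBOAT2*, which loads monounsaturated fatty acids onto phospholipids, rose from 46.7 ± 1.56 to 63.5 ± 2.88 CPM (0.44, edgeR adjusted p = 6.1e-05). *GCH1*, which starts the synthesis of tetrahydrobiopterin, rose by 0.25 (adjusted p = 0.000733), and both were steady. *ACSL4*, which activates polyunsaturated fatty acids, was low and fell from 2.43 ± 0.397 to 1.26 ± 0.414 CPM (−0.94, adjusted p = 0.0178, and 0.0625 to 0.0729 without attached 1 or suspended vehicle 1 or 2). *DHODH*, of mitochondrial pyrimidine synthesis, rose by 0.25 (adjusted p = 0.0434), although its libraries overlapped, and lost its call in 5 leave-outs, with an adjusted p of up to 0.166 (attached 1 and 3, suspended vehicle 1 and 2, AT-0174 1).

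Selenoproteins, the class to which *GPX1*, *GPX2* and *GPX4* belong, and the machinery that inserts selenocysteine gave 2 higher and 1 lower of 20. *SELENOI*, an enzyme of ethanolamine phospholipid synthesis, rose by 0.26 (edgeR adjusted p = 0.00073, steady). *SELENOF*, of the endoplasmic reticulum, rose by 0.24 (adjusted p = 0.0258, and 0.0654 to 0.101 without attached 1 or 3 or suspended vehicle 2 or 3). *SELENOP*, the selenium carrier, fell by 0.21 (adjusted p = 0.0316, and 0.052 to 0.105 without attached 1 or any suspended vehicle library), and its log2 difference was −0.12 without attached 1. The other 17 did not pass.

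**Figure D4:**
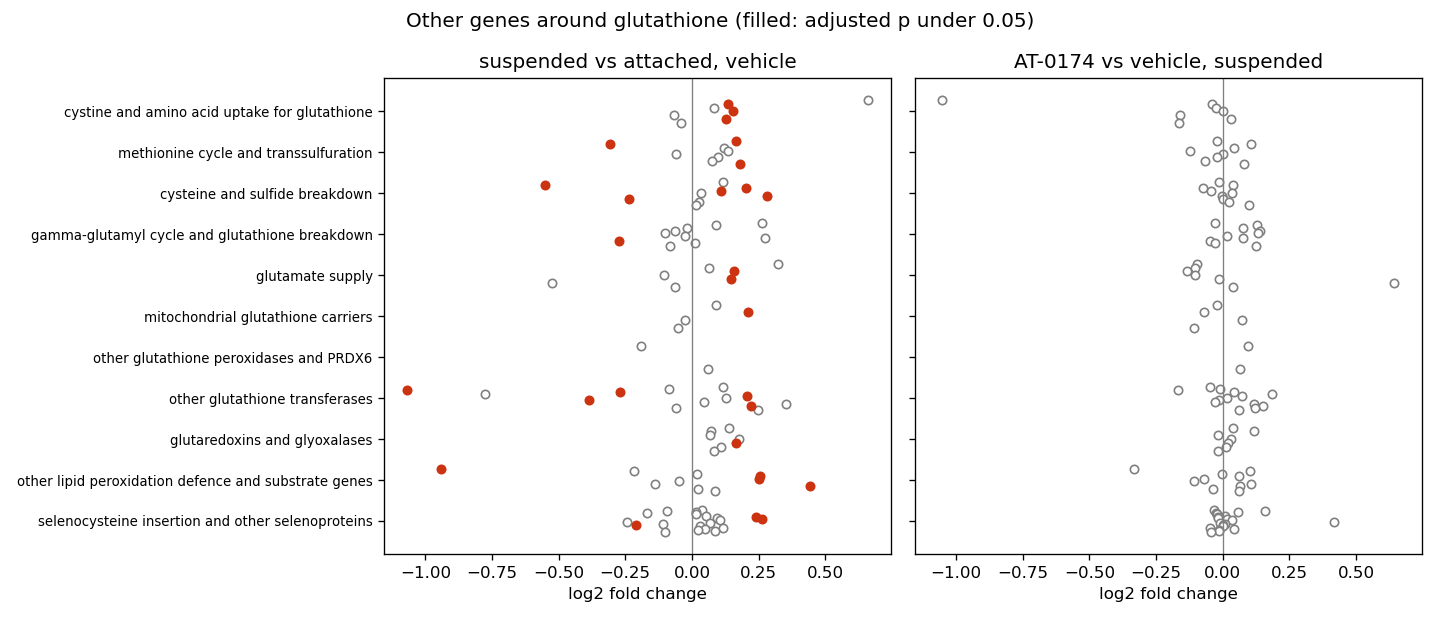
Log2 fold change of the 97 tested further genes by list, for suspension (left) and AT-0174 (right), 1 point per gene, with filled points past the adjusted p of 0.05. On the left 19 filled points lie above 0 and 9 below it, and on the right there are 0.

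Some counts could hold reads of neighbors. Exons of *SLC7A11* share 865 bases with *SLC7A11-AS1* on the opposite strand, which had 0 to 1 counts per library. Exons of *GSS* share 138 bases with *MYH7B* on the opposite strand, which had 9 to 28 counts. *GCLC* shares 305 bases with *GCLC-AS1* on the opposite strand, for which no count was matched. On the same strand, *GCLC* shares 529 bases with a noncoding gene of 0 to 4 counts. *GPX1* shares 572 bases with a protein-coding gene on the same strand, for which no count was matched either. The part of such overlaps in the values was not tested.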

How the data were processed

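The estimated counts per gene were made by the authors with Salmon 1.10.1 after trimming with cutadapt 3.4 in Trim Galore 0.6.7 and alignment with STAR 2.7.9a to GRCh38 (versions per the submitters' processing notes), and were deposited without normalization. TPM per transcript, deposited from the same step, were summed by gene. The 10 genes, the 11 lists and the tests were chosen with earlier results of these data known.

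Estimated counts were rounded. Low genes were removed in edgeR 4.0.16 (R 4.3.3) by filterByExpr, with a minimum count of 10. After TMM scaling, 1 quasi-likelihood fit took in the 9 libraries, with condition as its only term. p-values were adjusted by Benjamini–Hochberg over 15528 genes, and each SE was the log2 difference over the root of its F statistic. Named genes were the 10 members, up to 4 called genes per list by smallest p, and the 5 most correlated genes for *SLC7A11* and *GCLM* among genes with a mean of at least 50 counts. *GOT1* and *GSTO1* were named only for the loss of their calls. The fit was tested on simulated data. Alternatives were DESeq2 1.42.0, limma 3.58.1 (voom), other filters and scaling, length-scaled TPM, fewer libraries and a replicate block. Positions came from GENCODE on GRCh38. The labels and the methods name different library kits, so strandedness is uncertain.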

Additional observations from a re-analysis of the deposited data

How the results depend on the processing

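Over 17 alternatives, the 10 members kept the direction of each call. With suspension, 3 members passed in the count as reported and 2 to 3 when 1 library was left out, and *SLC7A11* and *GPX1* passed in each alternative. With AT-0174, 4 passed in each alternative except length-scaled TPM, where 1 passed. That setting called 35 of 15669 tested genes with AT-0174, beside 121 of 15528 in the main fit. There the adjusted p was 0.0261 for *GCLM*, 0.144 for *SLC7A11*, 0.314 for *GCLC* and 0.0988 for *MGST1*. Members that were not called changed sign in places, such as *GCLM* with suspension (0.02 with length-scaled TPM). For the 97 further genes, leaving out 1 library gave 18 to 28 calls with suspension and 0 to 1 with AT-0174, and length-scaled TPM gave 19 with suspension, where *MTRR* reversed to −0.16 and the cause was not tested. Among all tested genes, leaving out 1 library gave 1935 to 3260 calls with suspension and 63 to 128 with AT-0174. Length-scaled TPM gave 1712 with suspension. The 0 calls with AT-0174 became 2 with DESeq2, 1 with a minimum of 10 counts in every library, and 5 with no filter on low counts. Over all genes, DESeq2 called 214, the minimum of 10 counts 146 of 14037 and no filter 499 of 29181. After each gene was centered within its condition, same-numbered libraries had correlations of −0.058 to 0.038 with suspension and −0.157 to 0.106 with AT-0174. Differently numbered ones had −0.06 to 0.107 and −0.189 to 0.194, so the same-numbered pairs did not stand apart. With so few pairs, a weak pairing could be missed. With the replicate block, 2 members passed with suspension and 4 with AT-0174, and of the further genes 28 and 1. The block fit called 3250 and 146 of all 15528 tested genes. Depth limits *GSTP1* and *GPX2*, whose libraries held 15 counts or fewer.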
